A study of Mus musculus with 4 samples.

Results

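Iron handling was followed through 10 genes in 4 cultures labelled hepatocyte-like: Trf, Tfrc and Slc11a2 (uptake), Ireb2 and Aco1 (sensing), Fth1 and Ftl1 (storage), Slc40a1 and Hamp (export and its hormone) and Fech (haem). All 10 were found by symbol among the 78028 gene rows of each count table. Each culture was an independent differentiation of E14TG2a, a line of mouse embryonic stem cells, driven by a cocktail that the labels call A-HIC, and polyadenylated RNA was sequenced. They form 1 group without an undifferentiated, untreated or liver sample. The labels used here give neither the components of the cocktail nor the day of harvest, and all cultures share 1 line. Libraries 1 to 4 carry the replicate numbers of the labels and held 29.5 to 40.2 M counts. Levels are given as TPM, in which counts are scaled for gene length and library size.

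Most cells take up iron as transferrin-bound iron through the transferrin receptor, and the divalent metal transporter Slc11a2 moves it out of the endosome. Iron that is not used is held in ferritin, a shell built of heavy and light chains, or leaves the cell through ferroportin, the product of Slc40a1. Hepatocytes have a particular place in this system, because they secrete transferrin and the hormone hepcidin (Hamp), which triggers the breakdown of ferroportin. Iron regulatory proteins bind stem-loops, called iron-responsive elements, when iron is scarce. An element in the 5′ untranslated region then blocks translation, while elements in the 3′ untranslated region protect the transcript from decay. RNA counts report on the amount of transcript and not on its translation, so this control of ferritin is outside the measurement.

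The elements are shown because they divide the genes by how iron can reach their transcripts. Reference transcripts of GENCODE M21 (build GRCm38, not the GRCm39 of the counts) were searched on the sense strand for a bulged C, a stem of 5 base pairs with G-U allowed, and the loop CAGTGN. Each sequence is 28 bases long, 5′ to 3′ on the strand given, with the bulged C and the 6-base loop in capitals.
Fth1, 5′ untranslated region, plus strand, chr19:9982733-9982760: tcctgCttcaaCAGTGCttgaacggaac
Ftl1, 5′ untranslated region, minus strand, chr7:45459779-45459806: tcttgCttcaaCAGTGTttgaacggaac
Slc40a1, 5′ untranslated region, minus strand, chr1:45925465-45925492: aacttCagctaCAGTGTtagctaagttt
Tfrc, 3′ untranslated region, plus strand, chr16:32631220-32631247: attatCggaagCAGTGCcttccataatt
Tfrc, 3′ untranslated region, plus strand, chr16:32631599-32631626: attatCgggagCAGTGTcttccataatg
Tfrc, 3′ untranslated region, plus strand, chr16:32631664-32631691: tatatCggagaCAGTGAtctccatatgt
Tfrc, 3′ untranslated region, plus strand, chr16:32631711-32631738: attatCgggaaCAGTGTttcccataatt

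Thus matches in an untranslated region are listed for 4 of the 10 genes, against 160 of 21901 protein-coding genes (0.731%) with a match. Fech, on chromosome 18, was left out of the listing and of the count of 4. The share over protein-coding genes did not leave that chromosome out. Fth1, Ftl1 and Slc40a1 each held 1 match ahead of the coding sequence, while Tfrc held 4 behind it. Among 105 other iron and haem genes on fixed lists, those with a match included Alas2 in the 5′ and Bola3 in the 3′ untranslated region. A match describes letters that can fold in this way and does not show binding. For the other members except Fech, the absence of a match says only that these letters were not found. For Fech nothing can be said.

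Of the 10 genes, 9 were expressed, defined as 1 TPM or more in all 4 libraries, and Hamp was not. By the same rule 30.3% of all 48750 rows with a gene length and 63.5% of the 19872 protein-coding rows were expressed. The median of the members' mean levels was 64.0 TPM, beside 7.67 TPM over all protein-coding rows and 26.3 TPM over the expressed ones. The share of all counts that fell on the 10 genes together lay between 0.157% and 0.176%. The markers gave a mixed check of the label. Of 10 hepatocyte genes, 1 was expressed (Ttr), and Cyp2e1, a P450 enzyme of the mature liver, had 0 counts in every library, whereas all 7 pluripotency genes found were expressed. All 4 genes of the fetal liver list (Afp, Dlk1, H19 and Igf2), which other embryonic tissues are also known to express, were expressed and summed to 348 to 590 TPM. The summed level of the pluripotency markers was 3653 to 6915 TPM and that of the hepatocyte markers 8.73 to 57.6 TPM. The values that follow therefore belong to the libraries labelled hepatocyte-like and are not taken as those of hepatocytes. These are bulk samples, in which fewer cells of a type and less RNA per cell cannot be told apart.

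**Figure D1:**
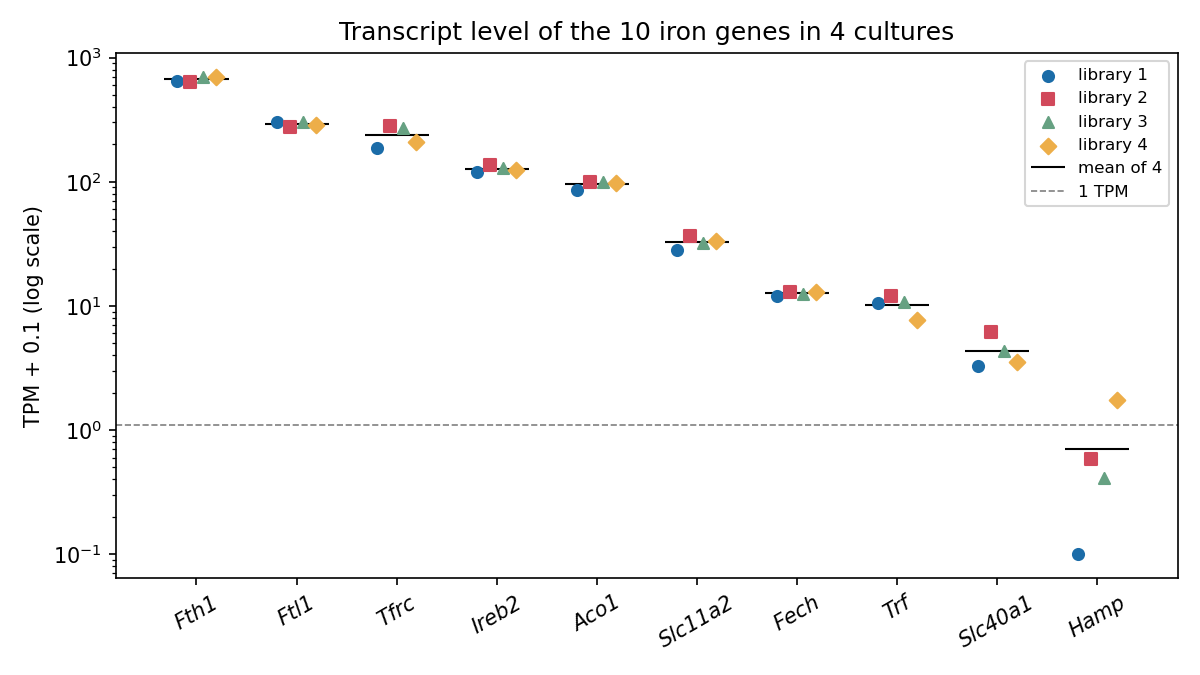
Level of each gene (TPM + 0.1, log axis) in libraries 1 to 4 (symbols), with the mean as a bar and 1 TPM as a dashed line. Fth1 is highest at 640 to 699 TPM, 9 genes lie above the dashed line in every library, and Hamp lies above it in library 4 only.

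On the uptake side, the receptor transcript was abundant and its ligand scarce. Tfrc, the transferrin receptor, stood at 188, 279, 268 and 208 TPM in libraries 1 to 4, with a mean of 236 ± 44.7 TPM (SD, n = 4). Libraries 2 and 3 were high and libraries 1 and 4 low, and the mean was above that of 94.6% of expressed protein-coding genes. Trf, transferrin itself, stood at 10.5, 11.9, 10.6 and 7.55 TPM, a mean of 10.2 ± 1.84 TPM. Library 4 was the low one, and Trf lay above 26.8% of expressed protein-coding genes. Within a library Tfrc exceeded Trf 17.8-, 23.4-, 25.2- and 27.5-fold per length. The log2 ratio was 4.52 ± 0.27 (SD, n = 4) and above 0 in 4 of 4 libraries, although an exact two-sided sign-flip permutation test over 4 libraries cannot go below p = 0.125, the value found. The same smallest p was reached by each of the 6 ratios examined, since every one kept its sign in all 4 libraries, and no ratio can pass a threshold of 0.05 in this design. The 361, 401, 278 and 261 counts of Trf carry a counting error of about 7.84%, if each fragment gave a pair of counts, beside a coefficient of variation of 18.2% between cultures.

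Slc11a2, the endosomal and intestinal divalent metal transporter, stood at 28.2, 36.6, 31.9 and 33.5 TPM, a mean of 32.6 ± 3.50 TPM. Its spread was small, with library 1 lowest and library 2 highest. Of the 12 other uptake genes, 10 were expressed. Steap1 led them at 96.5 ± 10.1 TPM, followed by Steap2, a metalloreductase, at 36.3 ± 5.86 TPM and the zinc and iron transporter Slc39a14 at 26.2 ± 4.63 TPM. Steap3, the ferrireductase of the transferrin cycle in red cell precursors, stood at 14.5 ± 2.17 TPM. Tfr2, the second transferrin receptor and a hepatocyte iron sensor, was lowest with 1.21, 0.704, 1.76 and 0.775 TPM, and Scara5, a ferritin receptor, stood at 1.22 ± 0.202 TPM. Neither of these passed 1 TPM in every library.

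Both iron regulatory proteins were transcribed at high and even levels. Ireb2, which encodes IRP2 and is controlled by degradation, stood at 120, 136, 129 and 124 TPM, a mean of 127 ± 7.09 TPM. Aco1, which encodes IRP1 and works as a cytosolic aconitase when it carries an iron-sulfur cluster, stood at 85.0, 99.9, 99.4 and 97.6 TPM, a mean of 95.5 ± 7.03 TPM. Library 1 was the low one for Aco1 and the other 3 lay close together. Ireb2 exceeded Aco1 in 4 of 4 libraries, by 1.41-, 1.37-, 1.30- and 1.27-fold, and their ranges did not overlap. With the length of the longest transcript in place of the union of exons, the log2 ratio rose from 0.42 ± 0.07 to 0.90 ± 0.07 (SD, n = 4). Fbxl5, the ubiquitin ligase subunit that marks IRP2 for degradation when iron is ample, stood at 37.0 ± 1.92 TPM. Its partner in the ligase, Skp1, stood at 530 ± 42.8 TPM.

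Ferritin transcripts were the most abundant of the 10. Fth1, the heavy chain that oxidises iron, stood at 653, 640, 697 and 699 TPM, a mean of 672 ± 30.3 TPM and rank 162 among 12626 expressed protein-coding genes. Ftl1, the light chain that helps iron to mineralise, stood at 303, 273, 303 and 288 TPM, a mean of 292 ± 14.03 TPM and rank 501. For both, the highest library was within 1.11-fold of the lowest. Per length the heavy chain exceeded the light chain in 4 of 4 libraries, with a log2 ratio of Ftl1 to Fth1 of -1.11, -1.23, -1.20 and -1.28. The size of this difference depends on gene length, because the union of Fth1 exons (3469 bases) is longer than its longest APPRIS principal transcript (1494 bases). With the latter length, the ratio was -1.95 and the mean of Fth1 was 1036 ± 47.2 TPM. The light chain has 7 annotated copies of its coding sequence (90% identity or more over 150 bases or more), which held 3.90% to 5.13% as many counts as Ftl1. Reads that fit several copies may be missing from its count, and adding the named pseudogene rows moved the ratio to -1.14.

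Genes that handle ferritin differed in level and in evenness. Ncoa4, the receptor that delivers ferritin to the lysosome, stood at 26.9 ± 3.40 TPM, and Pcbp2, an iron chaperone and RNA-binding protein, at 386 ± 9.79 TPM. Prnp, the prion protein, which can act as a ferrireductase, stood at 186, 276, 185 and 202 TPM, with library 2 apart from the rest. Nedd4l, a ubiquitin ligase, was the lowest of the list that was expressed, at 8.38 ± 0.598 TPM. Ftmt, mitochondrial ferritin, had 0 counts in all 4 libraries, which allows at most 0.0747 to 0.102 CPM, counts scaled to library size alone, for 3 counts and 0.149 to 0.203 CPM if both ends of a fragment were counted. This limit covers counting error only. Of the 14 genes for ferritin handling and turnover of the regulatory proteins, 13 were expressed and Ftmt was the exception.

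The iron exporter lay low among the 10 genes, with only Hamp below it by mean level. Slc40a1, ferroportin, the only known exporter of iron from mammalian cells, stood at 3.21, 6.11, 4.19 and 3.43 TPM, a mean of 4.23 ± 1.32 TPM. Library 2 was highest, at 1.90-fold the level of library 1, and the gene lay above 12.01% of expressed protein-coding genes. Tfrc exceeded it 58.5-, 45.6-, 64.0- and 60.7-fold and Slc11a2 8.80-, 6.001-, 7.62- and 9.79-fold. These ratios rest on a union of 9000 bases of exon for Slc40a1. With its longest transcript (3928 bases) Slc40a1 stood at 7.27 ± 2.27 TPM, and the log2 ratio of Tfrc to Slc40a1 moved from 5.79 ± 0.21 to 4.95 ± 0.21 and that of Slc11a2 to Slc40a1 from 2.95 ± 0.30 to 2.30 ± 0.30 (SD, n = 4). Tfrc and Slc11a2 remained above the exporter in 4 of 4 libraries with either length. Of the 8 other genes for export oxidases and haem transport, 6 were expressed. Cp, ceruloplasmin, the plasma ferroxidase secreted by the liver, stood at 9.07, 16.4, 7.45 and 17.6 TPM, with libraries 2 and 4 high. Heph, the membrane-bound ferroxidase, and its relative Hephl1 were low at 0.467 ± 0.143 and 0.454 ± 0.0628 TPM. Slc48a1, a haem transporter, was the highest at 81.3 ± 9.61 TPM, followed by the efflux pump Abcg2 at 35.0 ± 4.91 TPM and the haem exporter Flvcr1 at 17.2 ± 1.86 TPM.

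Hamp, the hormone that sets ferroportin levels, was near the limit of detection. It had 0, 2, 1 and 7 counts in libraries 1 to 4. The exact 95% Poisson intervals were 0 to 3.69, 0.242 to 7.22, 0.0253 to 5.57 and 2.81 to 14.4 counts, covering counting error only, and those of all 4 libraries overlap. If both ends of a fragment were counted, counts are not independent and these intervals are too narrow. Library 4 alone lay above the level of 3 counts, at 0.174 CPM, and without it the mean fell from 0.608 to 0.263 TPM. The near-identical gene Hamp2 (95.04% identity over 242 bases) had 0 counts in every library.

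The inputs known to act on Hamp in the liver were uneven. Of the 22 genes on the list for hepcidin regulation, 17 were expressed. The BMP pathway was represented by the signal carrier Smad4 at 118 ± 14.5 TPM. Smad7, an inhibitor of the pathway, stood at 123, 67.8, 100.5 and 82.2 TPM and Furin, which cleaves hemojuvelin and other precursors, at 80.7 ± 20.0 TPM. Bmp6, the ligand that reports liver iron, stood at 5.86, 8.99, 9.06 and 9.26 TPM. The iron-sensing genes of hepatocytes were scarce: Hfe stood at 1.02 ± 0.458 TPM, the co-receptor Hjv at 3.10, 0.777, 1.75 and 1.23 TPM and Tmprss6, the protease that removes hemojuvelin, at 0.656 ± 0.306 TPM. With Tfr2 and Hamp2 these were the 5 genes of the list that did not reach 1 TPM in every library.

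Fech, ferrochelatase, which inserts iron into protoporphyrin in the last step of haem synthesis, stood at 11.8, 12.9, 12.3 and 12.9 TPM, a mean of 12.5 ± 0.520 TPM. It was the most even of the members, and its coefficient of variation of 4.16% was close to the counting error of about 3.45%. Alas1, the rate-limiting first enzyme in most tissues, stood at 36.0 ± 4.12 TPM, and the log2 ratio of Fech to Alas1 was -1.48, -1.63, -1.36 and -1.58 in libraries 1 to 4. Alas2, the form used by red cell precursors, stood at 0.316 ± 0.0938 TPM. Of the 13 other genes of haem synthesis, 11 were expressed, and the exceptions were Alas2 and Abcb6, a porphyrin transporter, at 0.478 ± 0.132 TPM. Tmem14c, a mitochondrial porphyrin carrier, led the list at 232 ± 18.5 TPM, with Clpx at 82.1 ± 2.23 TPM. In an erythroid marker list, 1 of 10 genes was expressed (Epor) and the globin genes Hba-a2, Hbb-bt, Hbb-bs and Hbb-y had 0 counts in all libraries, while Hba-a1 had 2 in library 1 and 0 in the others.

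**Figure D2:**
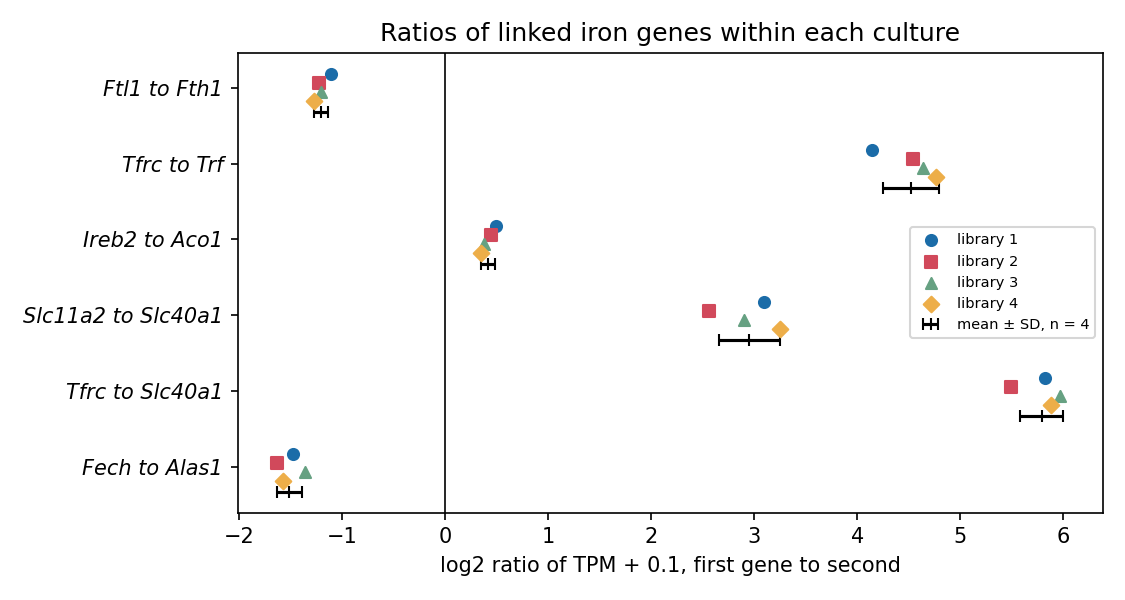
Log2 ratio of TPM + 0.1 within each library for 6 pairs of linked genes, with symbols for libraries 1 to 4 and the mean ± SD (n = 4) under them. The 4 libraries of each pair fall on 1 side of 0, from 5.49 to 5.97 for Tfrc to Slc40a1 and from 0.34 to 0.50 for Ireb2 to Aco1.

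Haem breakdown was represented by Hmox1, the inducible haem oxygenase that releases iron, at 169, 221, 251 and 193 TPM, a mean of 208 ± 35.4 TPM. Hmox2, the constitutive form, stood at 71.4 ± 6.40 TPM and Lrp1, a receptor for haem bound to hemopexin, at 71.8 ± 13.8 TPM. Hpx, hemopexin, a liver plasma protein, stood at 1.22 ± 0.582 TPM and Cd163, the haemoglobin receptor of macrophages, at 0.115 ± 0.0792 TPM, so 6 of the 8 genes on this list were expressed. In a macrophage marker list 4 of 9 genes were expressed. These were Cd68 at 57.8 to 85.1 TPM, Lyz2 at 3.19 to 9.06 TPM, Csf1r at 4.75 to 6.84 TPM and Cd14 at 3.45 to 4.95 TPM. Marco and Timd4 had 0 counts in every library.

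Users of iron inside the cell were nearly all present. Of 19 genes for mitochondrial iron and iron-sulfur clusters, 18 were expressed, led by the chaperone Hspa9 at 883 ± 25.5 TPM. Hscb, the co-chaperone that hands over new clusters, stood at 75.9 ± 13.6 TPM. Iba57 was low at 3.95 ± 0.990 TPM, and Fdx2, a ferredoxin with 9, 11, 7 and 21 counts, was the gene that did not reach 1 TPM in every library. All 10 genes of the cytosolic machinery that supplies clusters to proteins outside mitochondria were expressed, from Ciao3 at 13.1 ± 1.498 TPM and Nubp1 at 23.6 ± 1.14 TPM to Nubp2, Glrx3 and Ciao2a at 130 ± 17.3, 162 ± 13.8 and 184 ± 12.4 TPM. Ciao2a is the factor known to serve maturation of IRP1. Over these lists, counting each gene once, 91 of 105 genes were expressed, beside 63.5% of protein-coding rows.

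**Figure D3:**
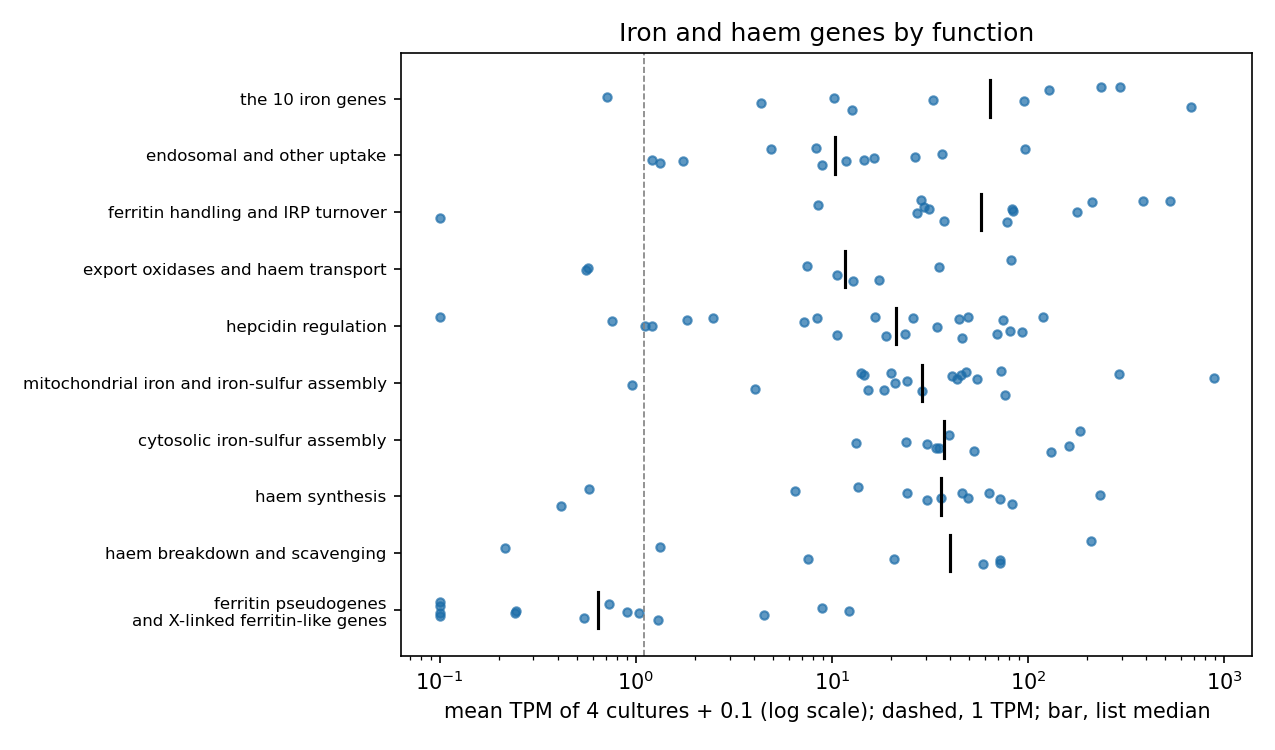
Mean TPM of 4 cultures (+ 0.1, log axis) for the 10 iron genes and the genes of 9 lists, 1 point per gene, with the list median as a bar and 1 TPM as a dashed line. The median is 64.0 TPM for the 10 genes, 57.2 TPM for ferritin handling and 0.536 TPM for ferritin pseudogenes and ferritin-like genes.

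The order of the mean levels was Fth1, Ftl1, Tfrc, Ireb2, Aco1, Slc11a2, Fech, Trf, Slc40a1 and Hamp, and it was the same with each of the 3 gene lengths tried. The ranges of some neighbours overlapped. Ftl1 and Tfrc did so, with Ftl1 higher in 3 of 4 libraries and a log2 ratio of 0.33 ± 0.32 (SD, n = 4). Fech and Trf overlapped as well, with Fech higher in 4 of 4 libraries and a log2 ratio of 0.32 ± 0.30. In both pairs the mean ratio was about as large as its SD. With the longest transcript these pairs no longer overlapped, but Trf (lowest library 7.32 TPM) and Slc40a1 (highest library 10.5 TPM) then did. All other neighbours had ranges that did not overlap with any of these lengths.

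The cultures were then compared with each other, which is the contrast that the labels allow. The spread of a gene was the SD over the 4 libraries of its log2 CPM, normalised by the trimmed mean of M values (TMM). Its median was 0.10 over the 9 members tested, beside 0.22 over all 17398 genes tested and 0.17 over expressed protein-coding genes. These medians are not matched in level. Slc40a1 varied most with an SD of 0.41, above 78.0% of all genes tested, followed by Trf at 0.28 and Tfrc at 0.27 (61.9% and 59.7%). Fech and Fth1 varied least, at 0.06 each (4.97% and 5.62%). Tfrc combined a high level with this spread, and its coefficient of variation of 18.98% stood beside a counting error of about 1.20%. For Slc40a1 these values were 31.2% and 7.37%.

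**Figure D4:**
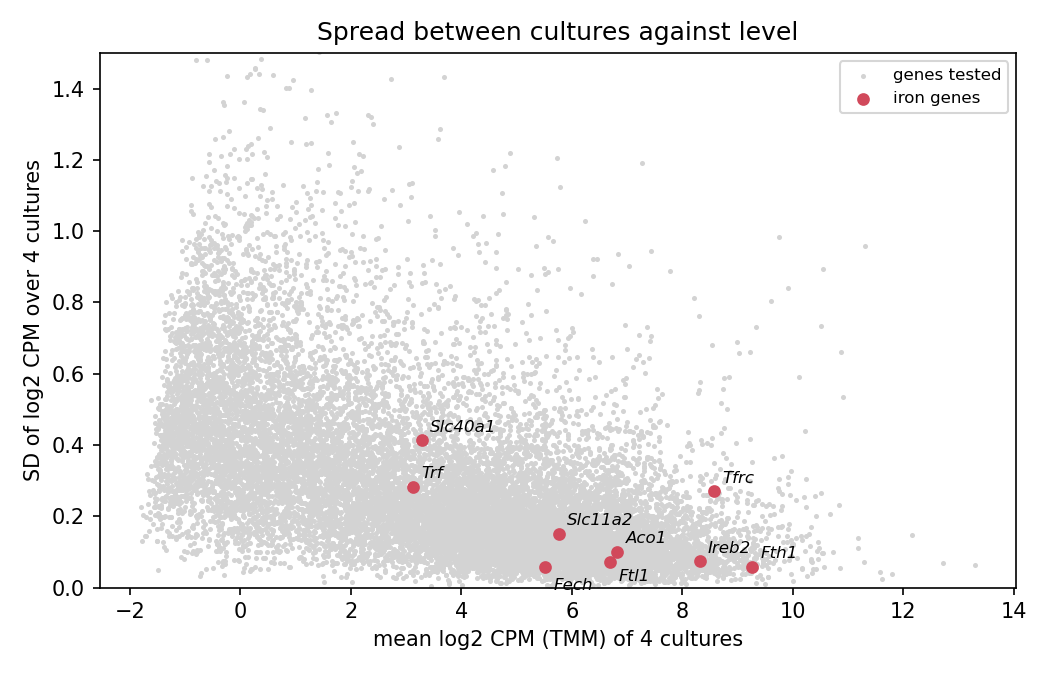
SD of log2 CPM over the 4 cultures against mean log2 CPM for the genes tested in the fit (grey, with 20 genes above the axis limit of 1.5 not shown) and the 9 iron genes tested (red). Slc40a1, Trf and Tfrc have the largest SDs of the 9, at 0.41, 0.28 and 0.27, and Fech and Fth1 the smallest.

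Library 2 was the highest of the 4 for 7 of the 9 members (Trf, Tfrc, Slc40a1, Slc11a2, Ireb2, Aco1 and Fech) and the lowest for both ferritin chains. Library 1 was the lowest for 6 of them. Over all genes tested, library 2 was the highest for 29.2% and library 1 the lowest for 28.6%. The counts were the same with TPM and with DESeq2's size factors, but with plain CPM library 2 was highest for 4 members, and Tfrc and Aco1 were then highest in library 3 and Fech in library 4. Ferritin was lowest in library 2 with each scaling. Members of a library share its depth and its mix of cells and are not independent of each other.

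No member was called in any library. In edgeR's quasi-likelihood test of each library against the other 3, with Benjamini-Hochberg adjustment over all 17398 genes tested, 0 of 9 members passed 0.05 in each of the 4 comparisons, where 0% of all genes passed. Hamp had too few counts to be tested. At an unadjusted p under 0.05 the members numbered 0, 1, 0 and 0 for libraries 1 to 4, beside 5.32%, 7.38%, 1.57% and 1.55% of all genes. DESeq2 called none of the members either, and 0.0719%, 0.446%, 0.0102% and 0.0102% of all genes. The gene with an unadjusted p under 0.05 was Slc40a1, higher in library 2 by a log2 fold change of 0.76 (edgeR, adjusted p = 0.626). Without library 4 this difference was 0.73 with an adjusted p of 0.0460 in edgeR, a comparison in which 14.4% of all genes passed, and over all 6 alternatives the adjusted p ranged from 0.0460 to 0.998. Tfrc was lower in library 1 by a log2 fold change of -0.40 (edgeR, adjusted p = 0.723, range over alternatives 0.0976 to 1.00). Trf was lower in library 4 by -0.55 (edgeR, adjusted p = 1.00, range 0.324 to 1.00). Of the other iron and haem genes, 98 were tested and 0 passed in each library (edgeR), with 6, 10, 2 and 0 at an unadjusted p under 0.05. Leaving out library 3, 4, 1 or 2 in the comparison of library 1, 2, 3 or 4 gave 17, 23, 7 and 13 of them past the adjusted 0.05, of 99, 98, 98 and 99 tested (edgeR). In the same fits 12.4%, 14.4%, 7.35% and 7.8% of all genes passed. For each library, the fit shown is the one with the most calls among those leaving out 1 other library. The library on its own has no replicate, so the test assumes that it varies like the others.

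**Figure D5:**
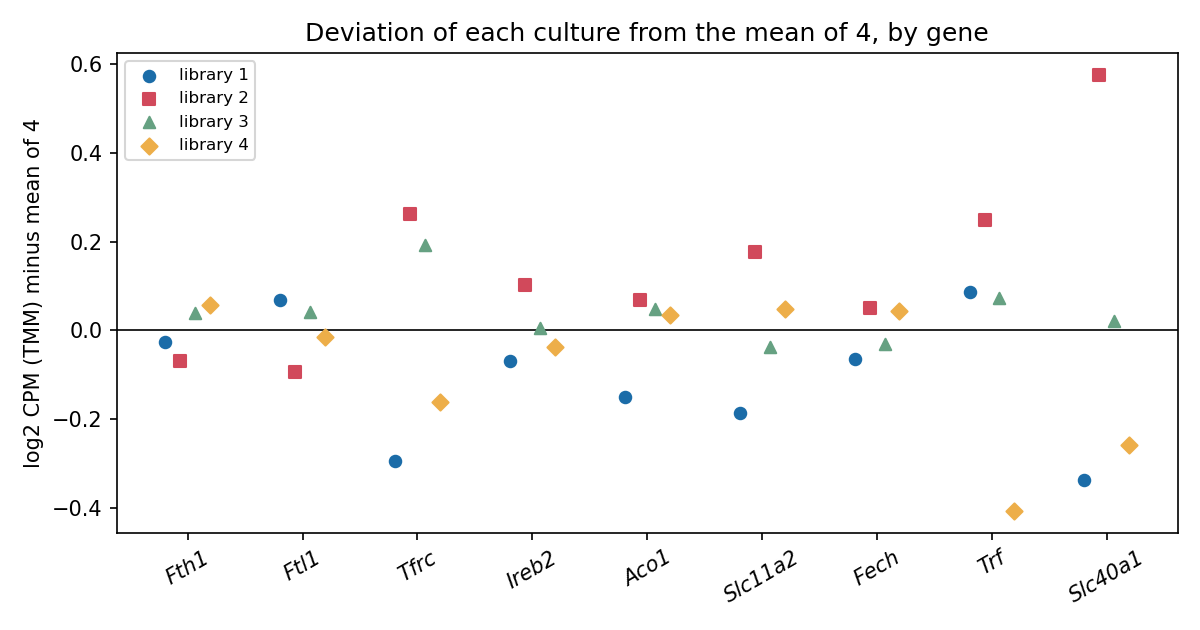
Difference of each library's log2 CPM (TMM) from the mean of the 4, for the 9 genes tested. Slc40a1 lies 0.58 above the mean in library 2, Trf 0.41 below it in library 4 and Tfrc 0.29 below it in library 1, while Fth1, Ftl1 and Fech stay within 0.1.

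Markers of other cell types also differed between the libraries. The summed level of the 8 parietal endoderm markers, all expressed, was 3147, 10073, 3808 and 7703 TPM in libraries 1 to 4. That of the 8 visceral endoderm markers, 7 of them expressed, was 114, 212, 148 and 156 TPM, and that of the 6 fibroblast markers, all expressed, was 1789, 3396, 1566 and 2511 TPM. The 7 pluripotency markers summed to 6915, 3653, 6160 and 4649 TPM. Slc40a1 and Trf were among the 7 of 9 members highest in library 2, as were 29.2% of all genes tested (TMM). In that library all 3 of the other lineage sums were highest and the pluripotency sum lowest. Much of the visceral endoderm sum was Dab2, at 62.7, 135, 86.2 and 94.9 TPM. Amn and Cubn were highest in library 3, at 12.3 and 16.3 TPM, and the remaining visceral endoderm markers in library 2. In library 4, where the parietal endoderm and fibroblast sums were next highest, Trf was lowest and Slc40a1 stood at 3.43 TPM. The hepatocyte markers summed to 9.07, 57.6, 8.73 and 25.2 TPM, with Cyp2e1 at 0. In TPM, Slc11a2 and Fech had the same order of libraries as the parietal endoderm sum, and the other 8 genes did not. With TMM scaling these 2 kept that order and Ftl1 had its exact reverse, as had the pluripotency sum in TPM. The share of all genes with either order was not computed, so neither match is read as particular to these genes. For Fech the order is not firm: libraries 2 and 4 stood at 12.94 and 12.87 TPM, closer than its counting error of about 3.45%. For Slc11a2, libraries 3 and 4 were also near each other, at 31.9 and 33.5 TPM, with a counting error of about 3.16%. With plain CPM Fech was highest in library 4. The part of these cell types in the differences was not tested.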

How the data were processed

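All 4 libraries belong to 1 group. Per the labels' protocols, they are unstranded, made from polyadenylated RNA and read from both ends. The authors deposited unnormalised read counts for each gene. The submitters' processing notes list STAR, featureCounts and GRCm39 (mm39). Their versions, the annotation and the counting settings: not given in the sources used here. Even numbers made up 60.0% to 62.6% of counts from 1 to 8, as when both ends of a fragment are counted, and the 37 mitochondrial rows held 0 counts.

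TPM were computed from the counts and the union of exons in GENCODE M21, matched for 48750 rows (48148 by symbol, 5 by gene ID, 597 by another symbol; 98.7% to 98.9% of counts). Ratios used a pseudocount of 0.1 TPM. Libraries were tested singly against the remaining 3 with edgeR 4.0.16 (TMM, filterByExpr, quasi-likelihood test) over all genes, with DESeq2 1.42.0 as an alternative, in R 4.3.3. Code was tested on simulated data. Copies of coding sequences were sought with BLAST 2.17.0. Exons of Ftl1, Slc11a2 and Trf overlap other annotated genes, whose reads cannot be told apart by strand. Those of the overlapping genes that had a row held 6 counts or fewer in each library. Gm20425 (overlapping Trf) and Gm22133 (overlapping Ftl1) had no row. Since the counting settings are not given, these counts do not show how many reads the members lost to overlap. Python 3.11.15, pandas 2.3.3, numpy 2.4.6, SciPy 1.17.1 and matplotlib 3.10.9 were used.

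The members and lists were chosen with earlier results of these data known. The genes named are the 10 members, the 3 highest and 2 lowest of each list by mean TPM, and 13 regulators fixed by name; some genes that this rule names are not reported here. Genes like a member in pattern were not sought, since 4 libraries are too few. The cultures are stated to be independent, so the spread is between cultures.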

Additional observations from a re-analysis of the deposited data

Results flagged for a closer look

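Among 65 sets of 4 values that were not all equal (members, ratios and named genes), 3 had a library far from the other 3 by Dixon's test, and chance gives about 1 in 20. Aco1 stood at 85.0 TPM in library 1 and at 97.6 to 99.9 TPM in the others, a gap of 0.846 of its range. Bmp6 stood at 5.86 TPM in library 1 and at 8.99 to 9.26 TPM in the others, a gap of 0.921 of its range. Hephl1 stood at 0.548 TPM in library 4 and at 0.412 to 0.435 TPM in the others, a gap of 0.832 of its range, on 18 to 30 counts.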

How the results depend on the processing

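No paired analysis was possible because the series has 1 group. The count of expressed members (8 to 9 of 10) and of other iron and haem genes (85 to 96 of 105) stayed within 1.5 times under thresholds of 0.5 and 5 TPM, CPM, other lengths and leaving out each library. All 6 log2 ratios kept their sign under every alternative run. With CPM they were -2.58 (Ftl1 to Fth1), 5.42 (Tfrc to Trf), 1.49 (Ireb2 to Aco1), 2.47 (Slc11a2 to Slc40a1), 5.27 (Tfrc to Slc40a1) and -0.36 (Fech to Alas1). With the longest transcript they were -1.49, 4.49, 0.90, 2.30, 4.95 and -1.30. With the longest principal transcript, an alternative chosen after the lengths were seen, they were -1.95, 4.49, 0.90, 2.62, 4.73 and -1.30. With a pseudocount of 1, Tfrc to Slc40a1 was 5.51. For libraries 1 to 4, edgeR without a filter on low counts called 328, 469, 1 and 6 genes in place of 0, and DESeq2 14, 80, 4 and 4. Leaving out 1 of the other libraries gave 0 to 2206 (library 1, highest without library 3), 0 to 2552 (library 2, without library 4), 0 to 1303 (library 3, without library 1) and 0 to 1386 (library 4, without library 2). The members called in library 2 then ranged from 0 to 1, and 0 were called in every other alternative. The cause of these differences was not tested. Hamp had 7 counts or fewer in every library. The other members had 261 or more, with counting errors of up to about 7.84% (Trf), if each fragment gave a pair of counts.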

Other observations

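The X-linked ferritin-like genes and ferritin pseudogenes formed a list of 15 rows, 14 with a gene length, of which 3 were expressed and 6 had 3 counts or fewer in every library. Ftl1-ps2 stood at 12.1 ± 2.17 TPM and Ftl1-ps1 at 8.79 ± 1.56 TPM (SD, n = 4), both near-identical to Ftl1 (97.8% and 99.6% over 549 bases), so their reads cannot be separated with certainty from those of the parent gene. Fthl17a, a ferritin-like gene, had 54, 32, 34 and 20 counts in libraries 1 to 4, or 6.26, 3.78, 5.17 and 2.30 TPM. Its relatives Fthl17d and Fthl17f, named after their values were known like Fthl17b, stood at 0.932 ± 0.541 and 1.19 ± 0.527 TPM, and Fthl17b, Ftl2-ps and Fth-ps3 had 0 counts in every library.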
